A study of Mus musculus with 6 samples.

Results

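The genes described here encode 4 families of small protease inhibitors, the cystatins, the stefins, the Kazal-type inhibitors and the inhibitors with a whey acidic protein (WAP) domain. They were chosen by gene name on the array, as the non-control probes named Cst with a number, Csta, Cstb, Stfa, Spink, Wfdc with a number, or Slpi. This gave 29 genes read by 34 probes, out of 27597 genes on the array: 9 cystatins, 5 stefins, 6 Kazal genes and 9 WAP genes. All 29 could be tested, since each was well above background on every array of one population or of both, as were 21395 genes of the array in all. Stfa1, Spink1 and Spink3 are not analysed here.

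RNA of 2 sorted epithelial cell populations of C57BL/6 mice was measured on 6 single-colour Agilent arrays, 3 for each population. ThymusEC are epithelial cells of the thymic medulla, sorted as live cells that carry the epithelial protein Epcam and bind the lectin UEA1 but lack CD45, a surface protein of blood cells. Replicates 1 and 2 pooled 6 thymi each and replicate 3 pooled 2. ThyroidEC were sorted from the thyroid by the same markers without UEA1, and each of the 3 replicates pooled 20 thyroids. The submitters call the replicates independent, and the labels give neither age nor sex. Both populations are bulk samples, in which fewer cells of a type and less RNA per cell cannot be told apart.

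Many cystatins and stefins, though not every protein of these families, block papain-like cysteine proteases such as the cathepsins of lysosomes. Cystatins are secreted, whereas stefins lack a secretion signal and act mainly in the cytosol. Kazal and WAP domains are compact folds held together by disulphide bonds, and many of the proteins that carry them inhibit serine proteases of the trypsin, kallikrein or elastase kind at epithelial surfaces. Several of these genes are known as markers of a single differentiated tissue, such as epididymis, testis, cornified skin, gut or neutrophils. Medullary thymic epithelial cells are known for transcribing many genes that are otherwise restricted to one tissue, partly under the regulator Aire, and for displaying the products to developing T cells.

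The labels were checked against marker genes. All 10 tested medullary thymic markers were higher in ThymusEC, with Aire at a log2 difference of 12.08 and Fezf2, well above background on no ThyroidEC array, at least 881-fold higher. Of 11 thyroid follicular markers, 9 were lower there, with Tg at -10.78, and Pax8 and Tshr were well above background on no ThymusEC array. ThyroidEC also held endothelial RNA: the summed linear level of 12 endothelial markers was 4.67 to 4.85 in ThymusEC and 606 to 892 in ThyroidEC, and all 12 were lower in ThymusEC. Between 78.4% and 81.0% of probes were well above background on the ThymusEC arrays and between 65.4% and 72.8% on the ThyroidEC arrays.

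Most of the inhibitor genes were higher in the thymic cells. By limma with Benjamini-Hochberg adjustment over all genes tested, 25 of the 29 were higher in ThymusEC at an adjusted p under 0.05, beside 39.2% of all genes tested, and 2 were lower, beside 30.6% of all genes tested, or 69.8% in either direction. The 2 lower genes were Cst3 and Wfdc1, and the 2 that did not pass were Spink8 and Spink10. The 3 values of one population lay apart from those of the other for 27 of the 29, as they did for 76.5% of all genes tested. The median log2 difference, ThymusEC minus ThyroidEC, was 4.90 over the 29 genes and 0.10 over all genes tested. It was 3.39 over the 29 with dim ThyroidEC values raised as for the lower bounds defined below, 1.45 with normexp background correction, and 0.74 over the 7 genes well above background on all 6 arrays. Of the 29, 14 differed by more than 5 towards ThymusEC, against 5.54% of all genes tested, and for 16 the fold with dim values raised in the same way was 8-fold or more, against 9.82%.

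Part of this count follows from how genes entered the test. All 29 were well above background on the 3 ThymusEC arrays, but 22 of them were not on all 3 ThyroidEC arrays. These 22 were admitted by the ThymusEC arrays alone, which favours genes that are brighter there, so the count and the median describe the families and support nothing further. Of the 22, 16 were well above background on no ThyroidEC array, a pattern that 10.7% of all genes tested showed. Among the 7 genes measured on all 6 arrays, Cst6, Cstb, Slpi and Wfdc2 were higher in ThymusEC, Cst3 and Wfdc1 were lower, and Spink8 did not pass. Of the 17054 genes measured on all 6 arrays, 28.5% were higher and 36.4% lower. With the array slide as a block, the median difference of the 29 was 5.27, as it was on the slide that held all ThymusEC arrays and ThyroidEC replicate 1. The other slide held ThyroidEC arrays only. Both fits therefore take their differences from the ThymusEC arrays against ThyroidEC replicate 1 alone and are the same comparison.

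**Figure D1:**
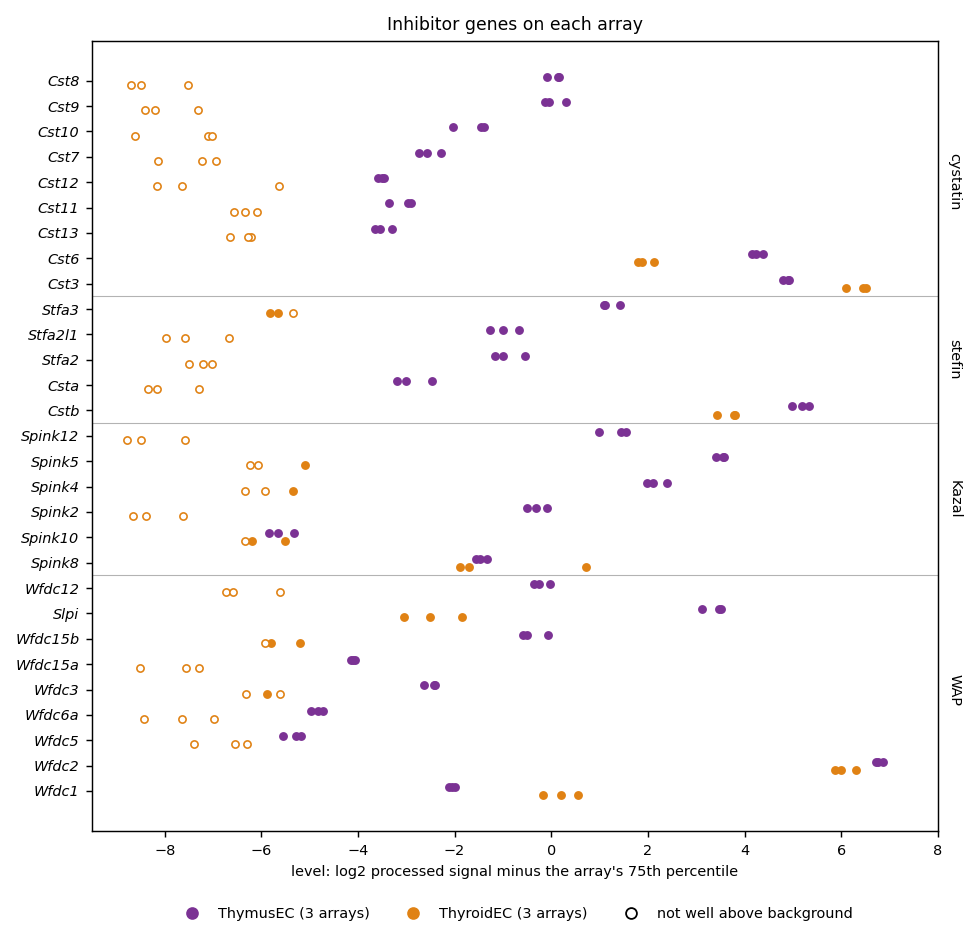
Level of each inhibitor gene on each array, as log2 of the processed signal minus the array's 75th percentile, with ThymusEC arrays in purple above ThyroidEC arrays in orange. Open points are not well above background, and positions of different genes are not comparable with each other. For 16 genes all 3 ThyroidEC points are open, and only Cst3 and Wfdc1 have their ThymusEC points wholly left of the ThyroidEC points.

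Levels below are log2 of the processed signal relative to the 75th percentile of the same array, so that 0 is the brightness of that percentile. Different genes are read by different probes, so levels are set against each other only within a gene. A ThyroidEC value that is not well above background only says that the signal was low, and such values have no order among themselves. For a gene well above background on no ThyroidEC array, the fold is given as a lower bound. It sets the mean of the ThymusEC values against the mean of the ThyroidEC values after each of these was raised, where lower, to the lowest signal well above background on its array. A log2 difference printed for such a gene, and a median over such differences, rests on those low values and is no bound.

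Among the cystatins, 8 were higher in ThymusEC and Cst3 was lower, with a median difference of 3.63, or 2.95 with dim values raised and 1.28 with normexp correction. Cst3 encodes cystatin C, the widely secreted cystatin of most tissues and body fluids. Its level was 4.90, 4.93 and 4.81 in ThymusEC and 6.45, 6.51 and 6.10 in ThyroidEC. All 6 arrays showed a bright signal, with every ThymusEC value below every ThyroidEC value. Cst3 was 2.77-fold lower in ThymusEC (log2 difference -1.47 ± 0.14, SE, adjusted p = 9.76e-05). Cst6 encodes cystatin E/M, an inhibitor of legumain and cathepsin L known from the epidermis. Its level was 4.23, 4.16 and 4.38 in ThymusEC and 1.80, 1.88 and 2.14 in ThyroidEC. The populations did not overlap, and Cst6 was 4.99-fold higher in ThymusEC (adjusted p = 8.76e-06). A further probe named for Cst6 was well above background on 1 ThymusEC array and on no ThyroidEC array and was not tested.

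Several of the cystatins are known from the male reproductive tract. Cst8, an epididymal cystatin also called CRES, was at 0.17, -0.09 and 0.15 in ThymusEC and at -8.48, -7.52 and -8.70 in ThyroidEC. Cst9, known as testatin from the developing testis, was at -0.06, -0.12 and 0.30 in ThymusEC and at -8.21, -7.30 and -8.41 in ThyroidEC. Both were close to the 75th percentile on each ThymusEC array and well above background on no ThyroidEC array. Cst8 was at least 73.3-fold higher in ThymusEC (adjusted p = 1.49e-06) and Cst9 at least 71.6-fold (adjusted p = 1.60e-06). Cst12 was at -3.47, -3.59 and -3.50 in ThymusEC and at -7.65, -5.63 and -8.16 in ThyroidEC, where no array was well above background. It was at least 6.06-fold higher in ThymusEC (log2 difference 3.63 ± 0.61, SE, adjusted p = 0.00166). That difference, and its value of 4.39 without ThyroidEC replicate 2, rest on signals not well above background and give no size beyond the bound. The 2 remaining genes of this kind, Cst11 and Cst13, had ThymusEC values between -3.64 and -2.90 and were well above background on no ThyroidEC array. Cst11 was at least 7.73-fold higher in ThymusEC and Cst13 at least 5.95-fold.

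Cst10 and Cst7 belong to other tissues. Cst10, known from maturing cartilage, was at -1.45, -2.02 and -1.40 in ThymusEC and at -7.11, -7.02 and -8.61 in ThyroidEC. It was well above background on no ThyroidEC array and at least 22.5-fold higher in ThymusEC (adjusted p = 2.96e-05). Cst7 encodes cystatin F, which immune cells send to their lysosomes, where it restrains cathepsin C. Its level was -2.74, -2.56 and -2.28 in ThymusEC and -8.13, -7.22 and -6.94 in ThyroidEC, again well above background on no ThyroidEC array. Cst7 was at least 12.04-fold higher in ThymusEC (adjusted p = 1.45e-05). Markers of immune cells moved the same way: 10 of 13 tested macrophage and dendritic cell markers were higher in ThymusEC. Mrc1, well above background on no ThyroidEC array, was at least 56.6-fold higher, and Lyz2 differed by 6.74. The summed linear level of the list was 95.3 to 103 in ThymusEC and 1.63 to 2.80 in ThyroidEC. Lyz2 made up 96.0% to 96.5% of the ThymusEC sum, and without it the sum was 3.63 to 4.14 in ThymusEC and 1.08 to 1.56 in ThyroidEC. Of 13 T cell markers, 11 were higher and Cd8b1 was lower at -1.99, with a summed level of 4.44 to 8.34 in ThymusEC and 1.94 to 2.05 in ThyroidEC. Cd8a and Rag1, well above background on no ThyroidEC array, were at least 32.8-fold and 21.0-fold higher. All 7 B cell markers were higher. Ms4a1 and Pax5, well above background on no ThyroidEC array, were at least 14.0-fold and 7.12-fold higher. The summed level of the 7 was 4.13 to 4.99 in ThymusEC and 1.31 to 2.44 in ThyroidEC. Without Cd79b, the brightest of them, it was 0.540 to 0.6004 in ThymusEC and 0.0589 to 0.0693 in ThyroidEC. Of all genes tested, 39.2% were higher. Well above background on all 3 ThyroidEC arrays were 10 macrophage and dendritic cell, 6 T cell and 1 B cell markers. The other markers of these lists were admitted by the ThymusEC arrays alone. CD45-positive blood cells had been gated out in the sort, and the part of such cells in the level of Cst7 was not tested.

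**Figure D2:**
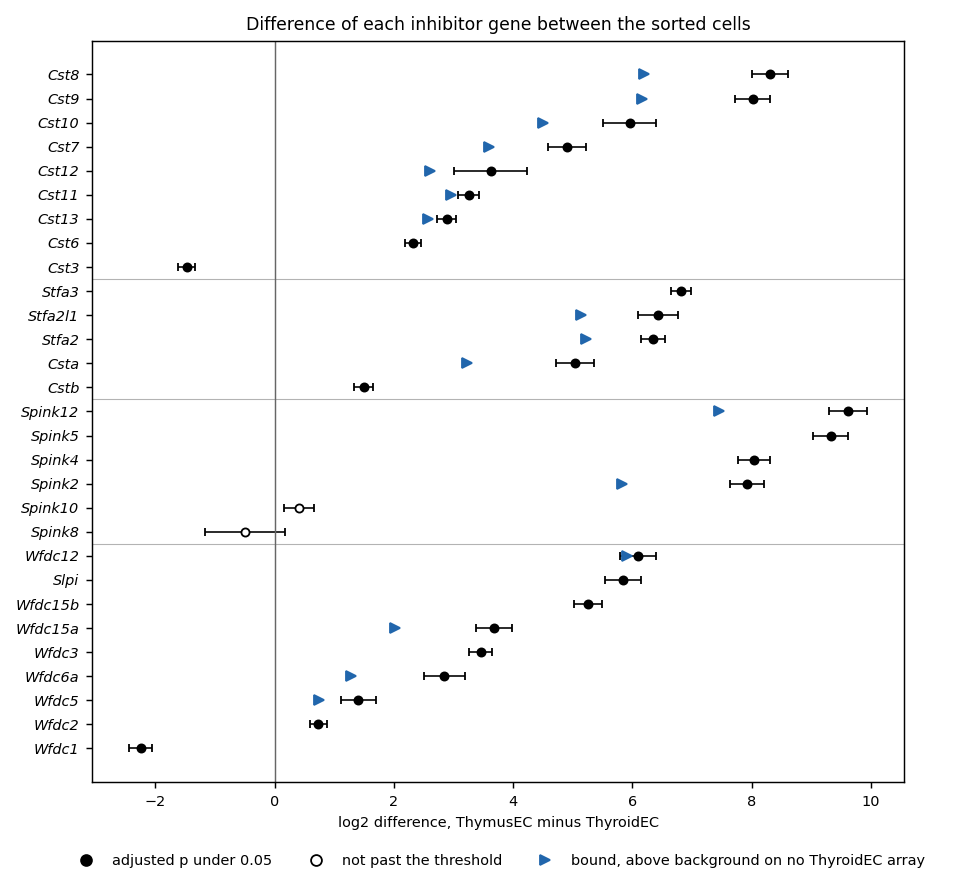
Log2 difference of each inhibitor gene, ThymusEC minus ThyroidEC, with its standard error from limma (3 arrays per population). Filled points passed an adjusted p of 0.05, and triangles give the lower bound for genes well above background on no ThyroidEC array. The points run from Wfdc1 at -2.24 to Spink12 at 9.61, and only Spink8 and Spink10 are open.

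All 5 stefins were higher in ThymusEC, with a median difference of 6.34, or 5.14 with dim values raised and 2.67 with normexp correction. Cstb encodes the widely expressed cystatin B. It was at 4.97, 5.18 and 5.33 in ThymusEC and at 3.42, 3.78 and 3.81 in ThyroidEC, so that both populations gave bright signals that did not overlap. Cstb was 2.81-fold higher in ThymusEC (log2 difference 1.49 ± 0.16, SE, adjusted p = 1.56e-04), and its further probe differed by 1.44. Csta, now named Csta1, is a gene of the cystatin A group, whose human counterpart is part of the cornified envelope of skin. It was at -3.01, -3.18 and -2.47 in ThymusEC and at -8.16, -7.28 and -8.35 in ThyroidEC. Csta was well above background on no ThyroidEC array and at least 9.39-fold higher in ThymusEC (adjusted p = 1.42e-05).

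The remaining stefins, Stfa2, Stfa2l1 and Stfa3, belong to a group of mouse genes known from neutrophils and their precursors. Stfa3 was at 1.08, 1.105 and 1.42 in ThymusEC and at -5.65, -5.35 and -5.83 in ThyroidEC, where 2 arrays were well above background. It was 112-fold higher in ThymusEC (adjusted p = 4.39e-07), the smallest adjusted p of the 29 genes. Stfa2 was at -0.99, -1.16 and -0.55 in ThymusEC and at -7.03, -7.49 and -7.20 in ThyroidEC. Stfa2l1 was at -0.99, -1.27 and -0.67 in ThymusEC and at -7.96, -7.57 and -6.68 in ThyroidEC. Both were well above background on no ThyroidEC array. Stfa2 was at least 37.3-fold higher in ThymusEC (adjusted p = 9.03e-07) and Stfa2l1 at least 35.4-fold (adjusted p = 6.17e-06). Neutrophil markers moved with them: all 10 tested were higher in ThymusEC, beside 39.2% of all genes tested. Only 2 of the 10 were well above background on all 3 ThyroidEC arrays. The other markers were admitted by the ThymusEC arrays alone. S100a8, well above background on no ThyroidEC array, was at least 778.5-fold higher, and S100a9 653-fold with the dim value raised. The summed linear level of the 10 was 48.6 to 66.3 in ThymusEC and 0.245 to 0.676 in ThyroidEC. Elane and Csf3r, which also mark that lineage, were well above background on none of the 6 arrays, and Cxcr2 on 2 ThymusEC arrays and no ThyroidEC array. The part of neutrophil RNA in these stefin levels was not tested.

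The stefin genes resemble each other, which bears on what a probe reads. The probes of Stfa2l1 (chr16:36079231-36081029 on mm8, spanning an intron, plus strand) and Stfa3 (chr16:36369846-36369905 on mm8, minus strand) are shown beside the probe of another transcript with which each shares its longest run of bases, in capitals. The first partner reads an unnamed transcript model of the same stretch and the second reads Cstdc4.
Stfa2l1: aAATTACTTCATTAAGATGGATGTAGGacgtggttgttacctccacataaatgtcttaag
partner of Stfa2l1: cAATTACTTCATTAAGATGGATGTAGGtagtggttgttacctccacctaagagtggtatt
Stfa3: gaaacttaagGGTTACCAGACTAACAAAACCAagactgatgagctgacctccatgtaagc
partner of Stfa3: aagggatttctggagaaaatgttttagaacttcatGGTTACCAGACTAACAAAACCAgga
The shared run is 26 bases for Stfa2l1 and 22 bases for Stfa3. The Stfa2l1 probe and its partner also match over a further run just after the capitals, so the longest run alone understates their likeness. Both partners were higher in ThymusEC as well, the unnamed model 16.1-fold with dim values raised and Cstdc4 at least 21.4-fold. Whether RNA of one gene also binds the other gene's probe was not tested.

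The start regions of these stefins are alike too. The windows printed here, from 250 bases before to 50 bases after the start of each gene, are RefSeq sequences of GRCm38.p6 for Stfa2 (chr16:36408314-36408613, minus strand), Stfa2l1 (chr16:36156561-36156860, plus strand) and Stfa3 (chr16:36455343-36455642, minus strand). They are shown because these genes sit together on chromosome 16 and were all higher in ThymusEC. Capitals mark runs of at least 12 bases that all 3 windows share in the same order.
Stfa2: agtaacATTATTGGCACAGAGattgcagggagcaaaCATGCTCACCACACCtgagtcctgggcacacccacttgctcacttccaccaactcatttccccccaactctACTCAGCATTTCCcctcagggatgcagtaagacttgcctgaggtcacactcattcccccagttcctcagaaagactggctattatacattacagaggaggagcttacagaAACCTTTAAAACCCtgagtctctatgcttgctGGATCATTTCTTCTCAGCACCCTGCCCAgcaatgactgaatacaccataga
Stfa2l1: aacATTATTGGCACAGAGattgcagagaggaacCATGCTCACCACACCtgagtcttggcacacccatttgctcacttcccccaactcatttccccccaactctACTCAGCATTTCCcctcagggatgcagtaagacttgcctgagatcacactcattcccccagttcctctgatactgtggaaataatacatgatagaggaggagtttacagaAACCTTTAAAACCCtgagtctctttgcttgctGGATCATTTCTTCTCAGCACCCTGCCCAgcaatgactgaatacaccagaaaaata
Stfa3: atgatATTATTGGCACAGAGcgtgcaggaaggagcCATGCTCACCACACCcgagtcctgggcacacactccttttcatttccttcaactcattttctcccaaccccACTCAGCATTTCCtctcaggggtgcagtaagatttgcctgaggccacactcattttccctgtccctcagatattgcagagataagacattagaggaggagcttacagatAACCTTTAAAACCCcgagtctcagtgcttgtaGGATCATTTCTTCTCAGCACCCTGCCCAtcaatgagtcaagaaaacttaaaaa
The windows share 5 such runs of 85 bases in all, and the longest, of 28 bases, lies at the gene start. The windows were laid over each other without gaps at the best of a limited range of offsets. Between Stfa2 and Stfa2l1, 79.7% of bases were then identical, with 63.5% between Stfa2 and Stfa3 and 53.9% between Stfa2l1 and Stfa3. The window of Csta, the fourth stefin of the stretch, matched the others at 31.2% to 32.8% of bases within that range. Csta and Stfa2 also share runs of bases at an offset beyond that range. The Csta percentages therefore do not measure how alike its window is to the others.

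Of the Kazal genes, 4 were higher in ThymusEC and 2 did not pass the test, with a median difference of 7.98, or 6.63 with dim values raised and 4.21 with normexp correction. Spink5 encodes LEKTI, the inhibitor of epidermal kallikreins whose loss causes Netherton syndrome in humans. Its level was 3.41, 3.58 and 3.56 in ThymusEC and -6.07, -6.24 and -5.10 in ThyroidEC, where 1 array was well above background. With the dim values raised as for the bounds, Spink5 was 529-fold higher in ThymusEC (log2 difference 9.32 ± 0.30, SE, adjusted p = 9.07e-07). Spink12, known from the mouse epididymis, was at 1.00, 1.44 and 1.54 in ThymusEC and at -8.50, -7.57 and -8.78 in ThyroidEC. It was well above background on no ThyroidEC array and at least 174-fold higher in ThymusEC (log2 difference 9.61 ± 0.33, SE, adjusted p = 1.11e-06).

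Spink4, known from goblet cells of the gut, was at 1.98, 2.11 and 2.39 in ThymusEC and at -6.35, -5.93 and -5.35 in ThyroidEC, where 1 array was well above background. It was 233-fold higher in ThymusEC with the dim values raised (adjusted p = 9.87e-07). Spink2, known from the acrosome of sperm, was at -0.32, -0.51 and -0.08 in ThymusEC and at -8.38, -7.62 and -8.66 in ThyroidEC. No ThyroidEC array was well above background, and Spink2 was at least 56.4-fold higher in ThymusEC (adjusted p = 1.28e-06). Of 17 cornified keratinocyte markers, 15 were higher in ThymusEC, beside 39.2% of all genes tested. Only 6 of the 17 were well above background on all 3 ThyroidEC arrays. Calm4 and Krtdap, well above background on no ThyroidEC array, were at least 455-fold and 446-fold higher. The summed linear level of the list was 94.4 to 114 in ThymusEC and 63.7 to 73.1 in ThyroidEC. Without Sprr2a1, which did not pass the test and made up 52.5% to 54.5% of the sum in ThymusEC and 96.2% to 96.7% in ThyroidEC, it was 43.8 to 54.1 in ThymusEC and 2.43 to 2.62 in ThyroidEC. Of 6 secretory and goblet markers, 5 were higher, and 3 of the 6 were well above background on all 3 ThyroidEC arrays. Reg3g and Tff3, well above background on no ThyroidEC array, were at least 10090-fold and 627-fold higher. The summed level of the 6 was 349 to 356 in ThymusEC and 3.22 to 4.48 in ThyroidEC. In both lists the other markers were admitted by the ThymusEC arrays alone. The part of cells with these markers in the levels of Spink5 and Spink4 was not tested.

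The other Kazal genes were Spink8 and Spink10. Spink8, known from the epididymis, was at -1.56, -1.47 and -1.33 in ThymusEC and at -1.70, 0.72 and -1.90 in ThyroidEC. The ThymusEC values lay close together, and ThyroidEC replicate 2 stood far above the other 2 ThyroidEC arrays. The difference of -0.50 ± 0.67 (SE) did not pass (adjusted p = 0.529), and without ThyroidEC replicate 2 it was 0.34 (adjusted p = 0.0652). Spink10 was at -5.66, -5.84 and -5.32 in ThymusEC and at -6.19, -6.35 and -5.51 in ThyroidEC. These overlapping values lie near background, with 2 ThyroidEC arrays well above it. Its difference of 0.41 ± 0.25 (SE) did not pass (adjusted p = 0.189), although it was 0.66 without ThyroidEC replicate 3 (adjusted p = 0.0196) and -0.99 under quantile normalization (adjusted p = 0.00521).

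Of the WAP genes, 8 were higher in ThymusEC and Wfdc1 was lower, with a median difference of 3.46, or 2.01 with dim values raised and 0.74 with normexp correction. Slpi encodes the secretory leukocyte protease inhibitor, which blocks neutrophil elastase and cathepsin G on mucosal surfaces. Its level was 3.48, 3.13 and 3.51 in ThymusEC and -3.06, -1.85 and -2.50 in ThyroidEC. It was well above background on all 6 arrays without overlap and 57.5-fold higher in ThymusEC (log2 difference 5.85 ± 0.30, SE, adjusted p = 5.80e-06). A further probe named for Slpi was well above background on 1 ThyroidEC array alone and was not tested.

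Wfdc2, also called HE4, is an epididymal protein and a marker of ovarian tumours in humans. It was at 6.72, 6.77 and 6.88 in ThymusEC and at 5.87, 6.30 and 6.00 in ThyroidEC. Both populations were far above the 75th percentile, and Wfdc2 was 1.67-fold higher in ThymusEC (log2 difference 0.74 ± 0.14, SE, adjusted p = 0.00305). With median centring, which lowers every difference by 0.52, it was 0.21 and did not pass (adjusted p = 0.171). Wfdc1, which encodes a secreted growth regulator known from prostate stroma, was at -2.05, -2.12 and -1.98 in ThymusEC and at 0.20, 0.55 and -0.18 in ThyroidEC. Every ThymusEC value lay below every ThyroidEC value, and Wfdc1 was 4.74-fold lower in ThymusEC (log2 difference -2.24 ± 0.19, SE, adjusted p = 5.89e-05). The summed levels of endothelial and thyroid follicular markers were also lower in ThymusEC, the second at 12.4 to 13.9 in ThymusEC and 572 to 746 in ThyroidEC. Without Dio1, which did not pass the test and made up 94.3% to 95.0% of the second sum in ThymusEC, that sum was 0.660 to 0.712 in ThymusEC and 559.5 to 728 in ThyroidEC. The fibroblast list went the other way. Of its 8 markers, 2 were higher in ThymusEC, Dcn at 1.40 and Thy1 at 1.25, and 0 were lower. Their summed level was 24.8 to 42.9 in ThymusEC and 9.07 to 26.2 in ThyroidEC. Without Dcn, the brightest, it was 8.68 to 15.35 in ThymusEC and 4.38 to 13.63 in ThyroidEC. The part of endothelial, follicular or fibroblast cells in the levels of Wfdc1 and Cst3 was not tested.

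Wfdc12 and Wfdc15b encode antibacterial WAP proteins. Wfdc12 was at -0.25, -0.37 and -0.03 in ThymusEC and at -6.73, -5.61 and -6.59 in ThyroidEC, and Wfdc15b was at -0.51, -0.59 and -0.07 in ThymusEC and at -5.80, -5.93 and -5.20 in ThyroidEC. Wfdc12 was well above background on no ThyroidEC array and Wfdc15b on 2. Wfdc12 was at least 59.9-fold higher in ThymusEC (adjusted p = 4.73e-06), and Wfdc15b 34.0-fold with the dim value raised (adjusted p = 3.17e-06).

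The remaining WAP genes were Wfdc15a, Wfdc3, Wfdc6a and Wfdc5. Wfdc15a was at -4.14, -4.07 and -4.11 in ThymusEC and at -8.51, -7.56 and -7.29 in ThyroidEC. Wfdc3 was at -2.42, -2.63 and -2.40 in ThymusEC and at -5.88, -5.62 and -6.33 in ThyroidEC. Wfdc15a was well above background on no ThyroidEC array and Wfdc3 on 1. Wfdc15a was at least 4.03-fold higher in ThymusEC (adjusted p = 4.81e-05), and Wfdc3 was higher by 3.46 on the log2 scale (adjusted p = 8.15e-06). A further Wfdc3 probe, which was not tested, showed a difference of -0.02, with 2 ThymusEC arrays and 1 ThyroidEC array well above background. Wfdc6a and Wfdc5 had ThymusEC values between -5.55 and -4.73 and were well above background on no ThyroidEC array. Wfdc6a was at least 2.43-fold higher in ThymusEC (adjusted p = 3.29e-04) and Wfdc5 at least 1.68-fold (adjusted p = 0.00418). Neither passed with normexp background correction, where the adjusted p was 0.148 for Wfdc6a and 0.927 for Wfdc5. A further Wfdc5 probe differed by 3.49.

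The WAP domain is rich in cysteines, which pair into its disulphide bonds. The probes of 3 WAP genes are shown because each is open throughout in a reading frame that holds several cysteine codons, although that frame was not checked against a protein. Capitals mark TGC and TGT in that frame in the probes of Wfdc12 (chr2:163881600-163881659 on mm8, minus strand), Wfdc15a (chr2:163891112-163891171, minus strand) and Wfdc6a (chr2:164275033-164275092, minus strand).
Wfdc12: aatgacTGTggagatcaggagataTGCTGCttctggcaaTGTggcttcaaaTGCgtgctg
Wfdc15a: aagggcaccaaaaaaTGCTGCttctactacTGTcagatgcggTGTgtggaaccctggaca
Wfdc6a: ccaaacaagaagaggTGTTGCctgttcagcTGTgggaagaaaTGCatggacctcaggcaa
Each 60-base probe holds 20 open codons, with 5 cysteine codons in Wfdc12 and 4 each in Wfdc15a and Wfdc6a. The longest run of bases that any of them shared with another probe of the array was 14 bases. The other probes of WAP genes held 0 to 2 cysteine codons in their longest open run of codons.

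By the probe positions in the array files, 19 of the 29 genes lay in 3 stretches of the mm8 genome. A stretch of 641.4 kb on chromosome 2 held 7 cystatins, of which 6 were higher in ThymusEC and Cst3 was lower. Cst3 lay 103.2 kb from the first probe of the stretch and Cst9 69.9 kb, and Cst3 was 2.77-fold lower in ThymusEC and Cst9 at least 71.6-fold higher. The other tested genes of this stretch, Cstdc1 and Cstdc2, both of cystatin type and well above background on no ThyroidEC array, were at least 1.64-fold and 14.6-fold higher. A stretch of 325.6 kb on chromosome 16 held Csta, Stfa2, Stfa2l1 and Stfa3 and 5 other tested genes, and all 9 were higher. Of all genes tested, 39.2% were higher. In the cystatin stretch only Cst3 was well above background on all 3 ThyroidEC arrays, and in the stefin stretch only Csta2 and Cstdc6. The other tested genes of both stretches were admitted by the ThymusEC arrays alone.

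A stretch of 553.2 kb on chromosome 2 held 8 WAP genes, all higher in ThymusEC, and 11 other tested genes, of which 6 were higher and 3 lower. Of all genes tested, 39.2% were higher and 30.6% lower. Among the higher genes of this stretch, only Slpi, Wfdc2 and Rbpjl were well above background on all 3 ThyroidEC arrays. The higher ones of the 11 included Svs4, Svs5 and Svs6, which encode proteins of the seminal vesicle. These were at least 16.5-fold, 11.0-fold and 2.84-fold higher. The lower ones were Sdc4, Sys1 and Dbndd2, with differences of -0.78, -0.46 and -1.06, and lay among the WAP genes. The remaining 10 inhibitor genes lay elsewhere, among them Wfdc1 on chromosome 8, Cst6 on chromosome 19 and Cstb on chromosome 10.

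**Figure D3:**
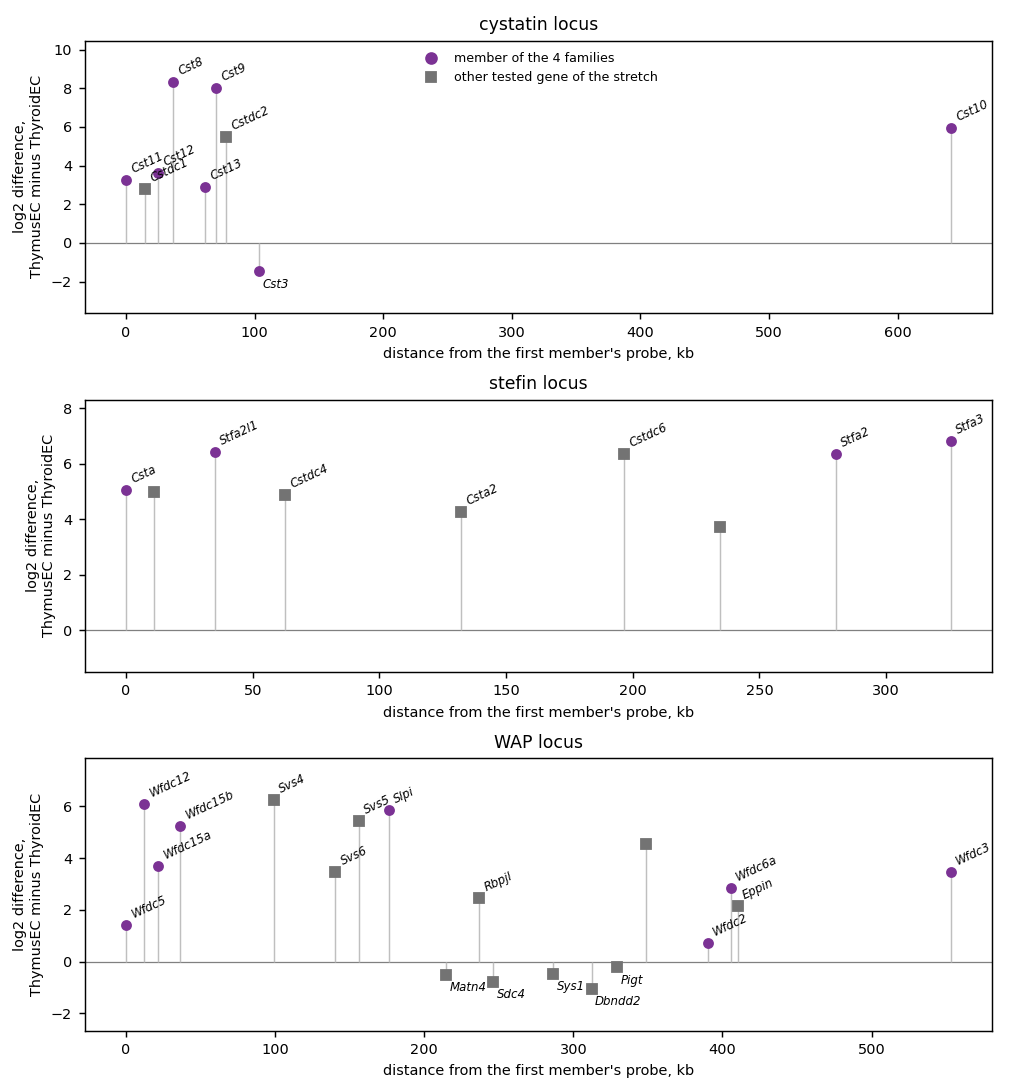
Log2 difference, ThymusEC minus ThyroidEC, of each tested gene in 3 stretches of the genome, against the distance of its probe from the first inhibitor gene's probe in kb. Purple circles are the inhibitor genes and grey squares the other tested genes, whether or not they passed the test, with transcripts lacking a gene symbol unnamed. Genes well above background on no ThyroidEC array stand at the fitted difference, not at the bound. In the cystatin stretch only Cst3 lies below 0, at -1.47, and in the stefin stretch every point lies above 0.

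The start regions were compared for the 19 inhibitor genes whose window was taken from the RefSeq table. Left out were Cst6, Cst11, Cstb, Wfdc1, Wfdc5 and every Kazal gene except Spink2. Of those, Cst6, Cstb, Wfdc1 and Spink8 were well above background on all 6 arrays, so the counts below describe the 19 and not the families. The median count of CpG dinucleotides in the 300 bases was 3 over these 19 and 7 over 27025 windows of the table, and 73.7% of the 19 and 43.6% of all windows held 5 or fewer. Wfdc2 held 16 and Cst3 held 13, the highest counts of the 19, while Slpi, the other gene of the 19 that was well above background on all 6 arrays, held 2. Cst3 and Cst9 are printed here as 2 cystatins of one stretch with opposite differences: Cst3 (chr2:148875463-148875762, minus strand) and Cst9 (chr2:148834897-148835196, plus strand), both on GRCm38.p6. Capitals mark GGGCGG, the GC box, which was searched on both strands.
Cst3: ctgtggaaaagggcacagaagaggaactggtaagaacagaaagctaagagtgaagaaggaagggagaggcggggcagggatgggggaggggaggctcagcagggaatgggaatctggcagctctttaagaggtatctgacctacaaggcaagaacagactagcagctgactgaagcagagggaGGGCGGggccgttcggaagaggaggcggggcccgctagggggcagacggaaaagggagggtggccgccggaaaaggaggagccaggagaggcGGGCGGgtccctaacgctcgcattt
Cst9: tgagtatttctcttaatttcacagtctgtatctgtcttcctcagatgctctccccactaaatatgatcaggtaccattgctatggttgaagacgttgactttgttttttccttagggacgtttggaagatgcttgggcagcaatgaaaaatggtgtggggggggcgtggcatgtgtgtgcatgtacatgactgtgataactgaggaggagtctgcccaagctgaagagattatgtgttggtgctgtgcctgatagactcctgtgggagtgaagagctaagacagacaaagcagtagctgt
The Cst3 window held 2 GC boxes and the Cst9 window none, with 3 CpG dinucleotides in Cst9. Of the 19 genes, Cst3 and Wfdc2 held a GC box, as did 35.9% of all windows. The TATA motif TATAAA was found in 1 of the 19 and in 14.2% of all windows, CCAAT in 6 and in 37.9%, TGANTCA in 3 and in 7.93%, and CACGTG in 1 and in 7.24%. These are matches of letters on either strand and say nothing about binding.

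Related genes under other names were counted from a list of cystatin-like, WAP and Kazal-like genes, which also holds protease inhibitors of other folds such as the Kunitz genes Spint1 and Spint2. Of 22 tested, 16 were higher in ThymusEC and 3 lower, with a median of 2.24. Of all genes tested, 39.2% were higher and 30.6% lower. With the test restricted to probes above background on all 6 arrays, 16 genes of the list remained, with a median of 0.97. Wfdc21 was at least 564-fold and Wfdc18 1336-fold higher (adjusted p = 1.15e-06 and 2.07e-07), and Sparc, a matrix protein with a Kazal-like module, and Reck, a membrane inhibitor of metalloproteases, were lower with differences of -4.04 and -1.94. A further list, drawn up after the array names had been seen, holds 13 genes that bear a family name only in the current annotation, and 6 of them are also on the list just counted. All 10 tested genes of the further list were higher, and 5 of these 10 had been counted already. Of the 10, 6 were well above background on no ThyroidEC array and were admitted by the ThymusEC arrays alone.

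Protease genes were counted too. The first list holds the cathepsins and legumain, among them Ctsd and Ctse, which are aspartic proteases, and Ctsa, a serine carboxypeptidase, none of which cystatins inhibit. Of its 14 genes, all well above background on all 6 arrays, 5 were higher in ThymusEC, 5 lower and 4 did not pass, with a median of -0.01. Ctss, the cysteine cathepsin that trims the invariant chain of class II molecules in antigen-presenting cells, was 21.0-fold higher (adjusted p = 4.56e-06), and Ctse, one of the aspartic proteases, 5.15-fold. Ctsd, another aspartic protease, and Ctsb, a cysteine cathepsin, were lower, with differences of -2.28 and -1.70. The summed linear level of the 14 was 186 to 219.7 in ThymusEC and 240.2 to 279 in ThyroidEC. Of 29 tested serine proteases and receptors that such proteases cleave, 23 were higher and 4 lower, with a median of 2.95. Of all genes tested, 39.2% were higher and 30.6% lower. Only 15 of the 29 were well above background on all 3 ThyroidEC arrays, and the others were admitted by the ThymusEC arrays alone. With the test restricted to probes above background on all 6 arrays, 14 remained, with a median of 1.09. Tmprss4, a membrane-bound serine protease, was at least 1011-fold higher (adjusted p = 2.97e-07) and Klk6, a kallikrein, at least 83.7-fold. F2r, a thrombin receptor, and Prss8 were lower, with differences of -3.08 and -2.05. Of the serine protease list, 10 were well above background on no ThyroidEC array. Of the kallikreins that LEKTI inhibits, Klk5 was at least 20.0-fold and Klk7 34.7-fold higher, and Ctsg, a target of Slpi, was 9.85-fold higher with the dim value raised. These 3 were chosen after their values were seen. Elane, the neutrophil elastase that Slpi also blocks, was well above background on none of the 6 arrays and was not tested. Among the kallikreins of the list, Klk8 did not pass, with a difference of -0.02, and Klk11 was lower, at -1.59. Every other tested kallikrein of the list was higher.

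**Figure D4:**
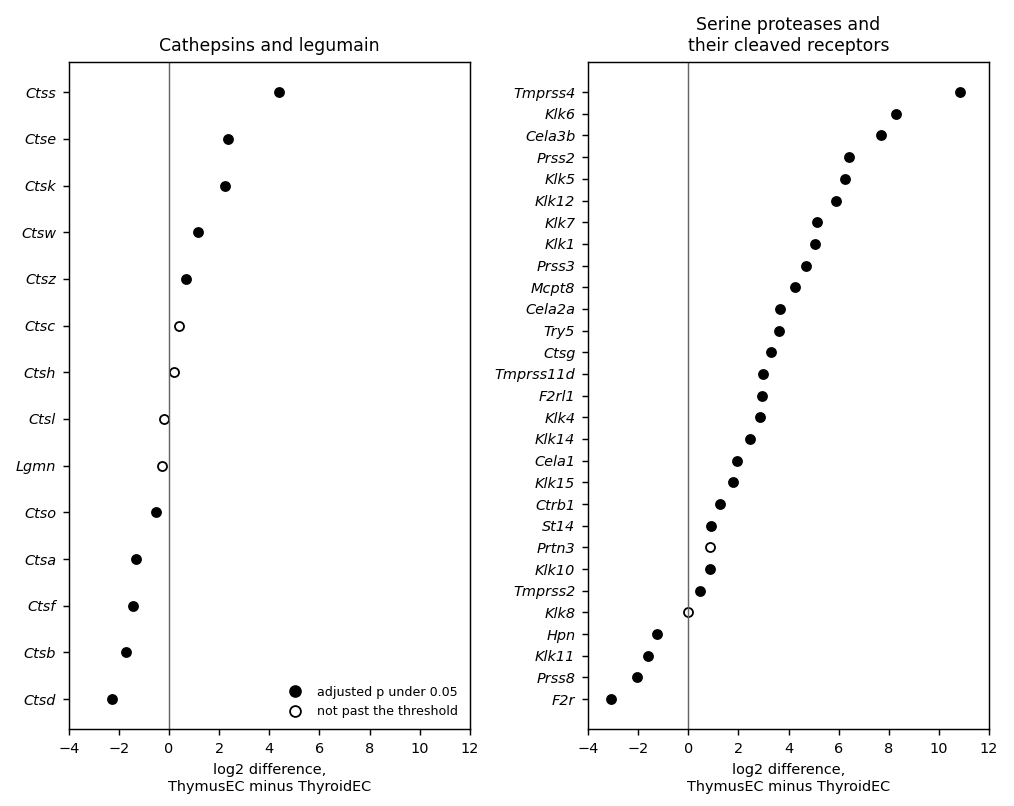
Log2 difference, ThymusEC minus ThyroidEC, of the tested cathepsins with legumain (left) and of the tested serine proteases and the receptors they cleave (right), ordered by size. Filled points passed an adjusted p of 0.05. The cathepsins run from Ctss at 4.39 to Ctsd at -2.28, and the serine proteases and receptors from Tmprss4 at 10.83 to F2r at -3.08.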

How the data were processed

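One Cy3-labelled total RNA sample was hybridised to each array, per the labels. The scanner software was Agilent Feature Extraction (version 10.5.1.1), and probe positions are those of mm8, both per the file headers. Each deposited intensity is, per the file headers, a processed signal, which was corrected for trends over the array and for background and was replaced by a surrogate value at background. The ratio in the value table that the authors deposited was found to be this signal over the median of its array, to within a relative difference of 3.9e-05.

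The arrays carried 43379 spots other than controls, which read 41174 probes. No spot was saturated, and each array lost 67 to 151 outlier spots, none of them a spot of an inhibitor gene. Repeated spots were averaged, and a flag counted as set at 50% of the spots or more. Levels are log2 of the processed signal minus the array's 75th percentile, which lay between 676 and 772 in ThymusEC and between 476 and 805 in ThyroidEC. Well above background is the scanner software's flag, set at 13 background SDs. Names came from a RefSeq table of GRCm38.p6. Where several probes of a gene were tested, the one with the highest mean level was used.

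The test was limma's (version 3.58.1, R 4.3.3), two-sided and with no covariate, through lmFit and eBayes, with Benjamini-Hochberg adjustment over 21395 genes. Simulated data were used to test the fit. The number of arrays, 3 per population, limits the precision. Replicate numbers did not pair the samples: deviations from the group means correlated at 0.0066, -0.067 and -0.055 between arrays of the same number. The genes, the lists and the alternatives were chosen with earlier results of these data known. Values on every array were printed for 13 genes named whatever their values, where measured, for up to 5 genes per family with the largest differences that passed without overlap, and for genes that were lower or did not pass. Up to 2 genes per direction were named from each list, and 1 gene that this rule takes is not reported here.

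Alternatives changed the scaling (median centring, quantile normalization), the background (normexp, offset 50), the source (the deposited table), the filter (none, or all 6 arrays), the rule for several probes (their median), the variances (trended and robust) and the design (slide as a block, slide 1 alone, replicate block, each replicate left out). Slide 1 carried the ThymusEC arrays and ThyroidEC replicate 1, and slide 2 carried ThyroidEC replicates 2 and 3. The slide block and slide 1 alone therefore gave the same differences. Figures used matplotlib 3.10.9 under Python 3.11.15.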

Additional observations from a re-analysis of the deposited data

How the results depend on the processing

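Of 471 values of single inhibitor genes over the alternatives, 457 kept their direction and their side of the threshold. The slide block and slide 1 alone are counted apart here, although they gave the same differences. Spink10 turned to -0.12 with median centring and with the deposited table, to -0.99 with quantile normalization and to -0.051 with normexp correction. Spink8 turned to 0.24 with the slide as a block and on slide 1 alone, and leaving out each replicate moved it between -0.97 and 0.34, the second without ThyroidEC replicate 2. Restricting the test to probes above background on all 6 arrays left 7 inhibitor genes, of which 4 were higher, with 1 cystatin, 1 stefin, 0 Kazal genes and 2 WAP genes among them, by limma's test. With that restriction, 5018 of 17082 tested genes were higher, against 8392 of 21395 in the fit reported, and 6437 were lower, against 6550. Of the other inhibitor list 10 of 16 were higher, against 16 of 22. Of the serine proteases and receptors 10 of 14 were, against 23 of 29, and of the marker genes 41 of 78, against 90 of 131. Median centring and the deposited table gave 6130 higher and 10968 lower of all genes, against 8392 and 6550 in the fit reported. Under both, 6 genes of the other inhibitor list were lower, and under quantile normalization 5, with 1 Kazal gene lower. Leaving out each replicate gave 25 to 26 inhibitor genes higher and 2 lower. Wfdc5 did not pass with quantile normalization (0.15, adjusted p = 0.758) or with the slide as a block (0.96, adjusted p = 0.0604). The median over the 29 genes fell to 1.45 with normexp correction, whose offset compresses dim signals. With the replicate number as a block, 25 inhibitor genes were higher and 2 lower, and 8049 of all genes were higher and 6017 lower, and the block changed no call of an inhibitor gene. Unless named here, the cause of a change was not tested. Dim signals limit the ThyroidEC values of 22 genes to a bound on at least 1 array.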
